A study of Mus musculus with 3 samples.

Results

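The genes examined here encode the nuclear-encoded subunits of the oxidative phosphorylation machinery of mitochondria. The rule goes by name and uses no measured value, although it was set with earlier results of these data known. It takes every gene whose symbol starts with Ndufa, Ndufb, Ndufc, Ndufs, Ndufv, Uqcr, Cox4i, Cox5, Cox6, Cox7, Cox8 or Atp5, together with Sdha, Sdhb, Sdhc, Sdhd and Cycs, without the Ndufaf assembly factors and Cox6a2. On the array 85 such genes had a probe, out of 20017 named genes. Another 22 symbols in RefSeq meet the rule, of which 19 are pseudogenes and 3 (Ndufb1, Ndufb4b and Ndufb4c) code for proteins, and were not analysed here. By name, 38 of the 85 belong to complex I, 4 to complex II, 8 to complex III, 17 to complex IV and 17 to complex V, and Cycs is cytochrome c. Among them 7 are isoforms known from particular tissues or conditions (Cox4i2, Cox6b2, Cox7a1, Cox7b2, Cox8b, Cox8c and Ndufa4l2), and the other 78 are expressed in most tissues.

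RNA came from primary fibroblasts of an Rb-/-;ATM-/- embryo (C57BL/6J, embryonic day 10.0). Per the labels the shRNA and ATM groups were made from the same cells as the empty-vector group, so every group carried the knockout alleles of Rb1, which encodes the retinoblastoma protein, and of Atm, which encodes a DNA damage kinase. One group received an empty vector, another a vector for a short hairpin RNA (shRNA) against Dnmt1, the methyltransferase that copies DNA methylation after replication, and the last a vector expressing ATM. Puromycin selection, at 4 ug/ml, lasted 3 days and was followed by 4 days of normal culture, after which RNA of each group was hybridised to 1 Agilent single-colour array. The vector's promoter is not described in the labels, nor is the number of cultures behind an array. With 1 array per group no difference has a p-value or a standard error.

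Oxidative phosphorylation couples electron transfer to ATP synthesis in the inner mitochondrial membrane. Complex I takes electrons from NADH and complex II from succinate, ubiquinone carries them to complex III, cytochrome c carries them on to complex IV, and complex IV hands them to oxygen. The proton gradient so built drives complex V, the ATP synthase. Complexes I, III, IV and V combine these nuclear-encoded subunits with proteins made from mitochondrial DNA, whereas complex II is built from nuclear genes alone.

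Levels are log2 signals relative to the 75th percentile of each array, so that 0 is the signal of a gene at that percentile, and a log2 ratio is the difference of such levels between arrays. The arrays of the Dnmt1 shRNA group and of the group labelled ATM vector are called the shRNA array and the ATM vector array. The single Dnmt1 probe read 4908 intensity units with the empty vector, 956 with the shRNA and 3169 with the ATM vector. After scaling, 21.8% of the Dnmt1 signal was left on the shRNA array, a log2 ratio of -2.19, and the log2 ratio was -0.49 on the ATM vector array. One Atm probe was near background throughout and the other read 430, 366 and 409 in the same order. The Rb1 probe was well above background on every array, at 541, 782 and 460 units, a log2 ratio of 0.70 on the shRNA array and -0.10 on the ATM vector array. Where the Atm and Rb1 probes lie relative to the deleted parts or the vector's insert is not known here, so they do not check the labels. Of 39404 probes, 55.1%, 59.6% and 55.0% were well above background on the 3 arrays. Fibroblast markers were well above background for 11, 12 and 11 of 12 genes and summed to 514, 564 and 689 times the 75th percentile signal, a sum carried by collagen and matrix genes. Other fibroblast markers were lower on the ATM vector array, Lum with levels of 3.59, 4.90 and 0.38 and Dcn with 5.67, 6.40 and 4.57, and Fap was not above background there. Markers of heart and skeletal muscle were above background for 3, 6 and 4 of 9 genes with sums of 1.04, 1.57 and 3.52, epithelial markers for 2, 4 and 2 of 5 with sums of 0.0792, 1.20 and 2.21, and the germ cell markers Ddx4, Dazl and Dppa3 for none of 3. Different genes carried the epithelial sums. Krt14 had levels of -4.88, -2.80 and 1.10, whereas Krt8 and Krt18 were above background on the shRNA array alone, at -1.47 and -0.62. Cdh1 had -5.03, -4.41 and -4.19, and Epcam was not above background on any array. The arrays of the empty vector and the Dnmt1 shRNA shared slide 1, and the ATM vector array was alone on slide 2, so slide and group cannot be told apart there.

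Promoters are shown for isoforms that stood apart on the shRNA array and for their counterparts. Ndufa4l2, Cox4i2 and Cox8c are named only. RefSeq promoter windows (GRCm38.p6), running from 250 bases before to 50 bases after a gene's start, were found for 70 of the 85 genes. Cox7b2 and Cox6b2, complex IV isoforms known from testis, are set beside their widely expressed counterparts Cox7b and Cox6b1. The 250 bases before each start are printed 5′ to 3′ on the gene's own strand, and capitals mark the CG dinucleotides, the sites that Dnmt1 keeps methylated.
Cox7b2 (chr5:71548206-71548455, minus strand): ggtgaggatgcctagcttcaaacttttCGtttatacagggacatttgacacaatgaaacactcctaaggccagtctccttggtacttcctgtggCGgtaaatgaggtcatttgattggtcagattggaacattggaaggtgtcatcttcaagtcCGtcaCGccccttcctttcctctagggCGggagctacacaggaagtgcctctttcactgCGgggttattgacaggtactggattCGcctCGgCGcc
Cox7b (chrX:106015450-106015699, plus strand): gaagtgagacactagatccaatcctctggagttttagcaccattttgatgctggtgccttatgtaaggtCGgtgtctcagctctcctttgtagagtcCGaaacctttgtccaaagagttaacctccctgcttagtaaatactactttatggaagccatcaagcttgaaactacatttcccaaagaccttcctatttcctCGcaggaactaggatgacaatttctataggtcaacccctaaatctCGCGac
Cox6b2 (chr7:4753095-4753344, minus strand): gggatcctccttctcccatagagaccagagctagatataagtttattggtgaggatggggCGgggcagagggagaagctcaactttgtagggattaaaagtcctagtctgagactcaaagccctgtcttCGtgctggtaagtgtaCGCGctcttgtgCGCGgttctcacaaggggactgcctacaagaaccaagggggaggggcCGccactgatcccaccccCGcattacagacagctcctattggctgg
Cox6b1 (chr7:30626115-30626364, minus strand): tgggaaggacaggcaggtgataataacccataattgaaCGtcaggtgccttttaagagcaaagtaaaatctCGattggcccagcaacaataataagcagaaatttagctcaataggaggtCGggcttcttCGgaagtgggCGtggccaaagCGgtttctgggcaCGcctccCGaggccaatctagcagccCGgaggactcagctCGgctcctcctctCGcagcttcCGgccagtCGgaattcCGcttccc
These stretches hold 9 CG in Cox7b2, 5 in Cox7b, 8 in Cox6b2 and 14 in Cox6b1, so the number of CG did not order the isoforms below their counterparts in both pairs. Over the whole 300-base window the 66 widely expressed subunits with an entry had a median of 20 CG (range 5 to 43), against 16 for all 15888 genes with a window. The isoforms Cox6b2, Cox7a1, Cox7b2 and Cox8b had 10, 7, 10 and 2. Methylation itself was not measured.

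On the shRNA array the widely expressed subunits lay close to their levels on the empty-vector array, and the differences past 1.5-fold were in the tissue isoforms and Atp5g3. Across the 82 of 85 genes that were well above background on both arrays, the median log2 ratio was -0.06, with 24 above 0 and 58 (70.7%) below 0. Among all 12574 genes measured on both arrays the median was -0.03 and 54.5% were below 0, and among the 5723 that exceeded the 75th percentile on both arrays, as at least 1 probe of each of the 78 widely expressed subunits did, the median was -0.08 and 63.9% were below 0. The small shift of the subunits below 0 was thus near that of bright genes in general, and it turned to 0.02 under quantile normalisation and 0.04 under cyclic loess. Median scaling gave -0.30, with the median of all genes at -0.27. At least 1.5-fold higher were 2 subunits, Ndufa4l2 and Cox6b2, where 8.45% of all genes were, and 1 was at least that much lower, Atp5g3, where 3.03% of all genes were. Bright genes passed 1.5-fold less often, with 131 of 5723 higher and 84 lower. Of the 78 widely expressed subunits 0 were higher and 1 lower. Among the 78 widely expressed subunits the log2 ratios ran from -0.66 to 0.19 with an SD of 0.14. Probes of the same subunit differed by a pooled SD of 0.038 on this comparison (23 subunits with several probes), counting only probes that both arrays measured above background, which leaves out the dim Cycs probe. Over all 3261 genes with several such probes it was 0.210. Both cover spread between probes only, not spread between cultures. In RNA from a whole culture, fewer cells of a type and less RNA per cell cannot be told apart.

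**Figure D1:**
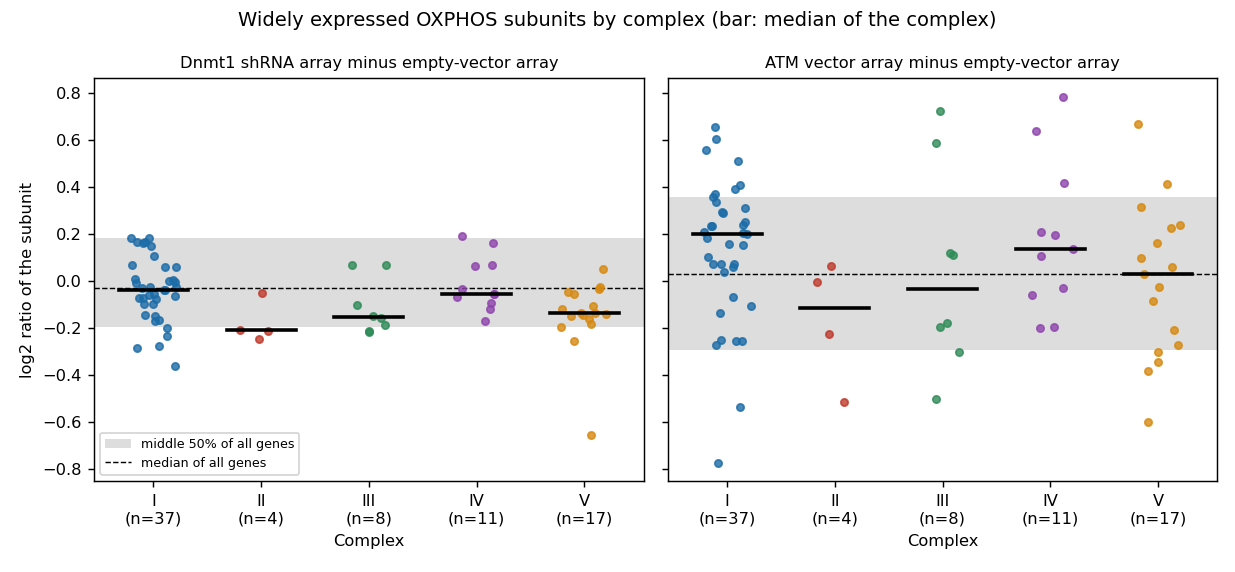
Each point is 1 widely expressed subunit, placed by complex (x axis) and log2 ratio to the empty-vector array (y axis), for the shRNA array on the left and the ATM vector array on the right; bars are medians, the grey band holds the middle 50% of all genes, the dashed line is their median, and Cycs is not drawn. On the left most points sit within the band, with medians from -0.21 in complex II to -0.04 in complex I, and on the right the points spread from -0.77 to 0.78.

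The complexes were ordered on the shRNA array with complex II lowest. Median log2 ratios were -0.21 for complex II, -0.16 for complex III, -0.14 for complex V, -0.03 for complex I and 0.01 for complex IV, or -0.04 and -0.06 for complexes I and IV without the tissue isoforms. The medians of complexes I and IV have no settled direction, since complex I stood at 0.06 under quantile normalisation and complex IV at -0.15 without scaling. Complexes II, III and V stayed below 0 but came nearer to it, at -0.13, -0.07 and -0.05 under quantile normalisation and -0.11, -0.04 and -0.02 under cyclic loess. Complex II had the lowest median in 15 of 16 ways of processing the arrays, and complex III in the other 1. Several of these ways only rescale an array, which moves every complex alike and cannot change the order. The filters and leaving out isoforms did not change the median of complex II, so the count is a weak check. Subunits below 0 were 4 of 4 in complex II, 6 of 8 in complex III, 16 of 17 in complex V, 24 of 38 in complex I and 7 of 14 in complex IV. No test of these differences is possible with 1 array per group, and the medians rest on few genes in complexes II and III.

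Complex II, succinate dehydrogenase, links the citrate cycle to the respiratory chain. Its flavoprotein Sdha, which oxidises succinate, had levels of 3.92, 3.86 and 3.40 on the empty-vector, shRNA and ATM vector arrays. The iron-sulphur subunit Sdhb had 3.73, 3.48 and 3.73. Levels of the membrane anchors were 3.14, 2.93 and 2.91 for Sdhc, and 4.05, 3.84 and 4.11 for Sdhd. Sdhb, Sdhc and Sdhd were lower by a similar step on the shRNA array, with log2 ratios of -0.25, -0.21 and -0.21, while Sdha stood at -0.05. On the ATM vector array the order was different, with Sdha at -0.52, Sdhc at -0.23, Sdhb at -0.01 and Sdhd at 0.06. The Sdhb probes gave -0.12 and 0.11 there, on either side of 0.

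Complex I splits into a catalytic core, most of whose nuclear-encoded members carry flavin or iron-sulphur clusters or bind ubiquinone, and accessory subunits that stabilise it. On the shRNA array 6 of the 7 core subunits were below 0, with a median of -0.17. The 31 accessory subunits had a median of -0.03, with 18 below 0. Ndufs3 had levels of 4.22, 3.93 and 4.08 on the empty-vector, Dnmt1 shRNA and ATM vector arrays, and Ndufs7, which holds the last iron-sulphur cluster before ubiquinone, had 4.30, 4.02 and 4.95. Their log2 ratios on the shRNA array were -0.29 and -0.28, followed by -0.20 for Ndufs8, -0.17 for Ndufv1 and -0.15 for Ndufs1. Ndufv2, of the NADH-binding arm, stood at 0.00. The lowest complex I subunit on this comparison was accessory, Ndufa10, with levels of 2.08, 1.72 and 2.24 and a log2 ratio of -0.36. The highest widely expressed ones were Ndufa6 and Ndufa4, both at 0.18, the latter from levels of 4.94 and 5.11. Ndufa4 is counted here by its name but is now regarded as a subunit of complex IV.

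In complex III, which passes electrons from ubiquinol to cytochrome c, 6 of 8 subunits were below 0 on the shRNA array. The core proteins Uqcrc1 and Uqcrc2 had log2 ratios of -0.19 and -0.22 on the shRNA array, and the Rieske iron-sulphur protein Uqcrfs1 had -0.22. Uqcrh stood at -0.16, Uqcr11 at -0.15 and Uqcrb at -0.10, and the small subunits Uqcr10 and Uqcrq were both at 0.07. Levels of Uqcrc2 were 3.72 on the empty-vector array, 3.50 on the shRNA array and 3.83 on the ATM vector array. Levels of Uqcrfs1 were 3.49, 3.27 and 2.98, highest on the empty-vector array and lowest on the ATM vector array. Cycs, the electron carrier, had 3 probes that disagreed on the shRNA array, at -0.28, -0.16 and 0.13 with a mean of -0.10. The probe at 0.13 was the dim one, with signals of 41.6, 40.6 and 50.4 units, and was not well above background on the empty-vector array.

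Complex V makes ATP, with a catalytic F1 head and a membrane part joined by stalks. On the shRNA array the median was -0.14 both for the 5 F1 subunits, which were all below 0, and for the 12 others, of which 11 were below 0. Atp5g3 was the only widely expressed subunit past 1.5-fold, with signals of 128575, 72678 and 94763 units on the empty-vector, Dnmt1 shRNA and ATM vector arrays. Its levels were 5.80, 5.14 and 5.50, which made the shRNA array the lowest at a log2 ratio of -0.66. Atp5g1, Atp5g2 and Atp5g3 encode the same mature c subunit of the rotor ring, and the other pair gave -0.26 for Atp5g1 and -0.15 for Atp5g2. All 3 were below 0, and Atp5g1 and Atp5g3 have 1 probe each. Atp5l, of the membrane part, was the only complex V subunit above 0, at 0.05 over 5 probes that ranged from 0.02 to 0.13.

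Complex IV, cytochrome c oxidase, is where tissue isoforms replace widely expressed subunits, and its 11 widely expressed members ran from -0.17 in Cox5a to 0.19 in Cox6c on the shRNA array. Cox6c read 73892, 75128 and 58600 units on the empty-vector, Dnmt1 shRNA and ATM vector arrays, lowest on the last. Cox5a levels were 5.44, 5.26 and 6.07, the highest on the ATM vector array. Cox7a2l, which helps to join complexes III and IV into supercomplexes, had 4.05, 4.21 and 4.83, with 3 probes between 0.13 and 0.18 on the shRNA array and between 0.72 and 0.88 on the ATM vector array.

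Of the 7 tissue isoforms, 4 were well above background on all 3 arrays, Cox7b2 was on the shRNA array alone, and Cox8b and Cox8c were on none. Ndufa4l2, a hypoxia-responsive relative of Ndufa4, read 47.2 units on the empty-vector array, 688 on the shRNA array and 182 on the ATM vector array. After scaling it was 16.4-fold higher on the shRNA array, a log2 ratio of 4.03, and 4.24-fold higher on the ATM vector array. Its signal on the empty-vector array was near the lowest signal well above background there, 37.8 units, and normexp background correction gave smaller log2 ratios of 2.83 and 1.30. The counterpart Ndufa4 was at 0.18 and 0.20 on the same comparisons.

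Cox7b2 was well above background on the shRNA array alone, with 149 units, and read 8.55 and 7.16 on the other arrays, where it was not well above background. Set against the lowest signal well above background, it was at least 4.41-fold higher on the shRNA array than on the empty-vector array and at least 4.64-fold higher than on the ATM vector array. Cox7b was at -0.06 on the shRNA array and 0.42 on the ATM vector array. Cox6b2 read 352 units on the empty-vector array, 955 on the shRNA array and 180 on the ATM vector array, which is 3.05-fold higher on the shRNA array and 1.78-fold lower on the ATM vector array. Its counterpart Cox6b1 was at -0.10 and 0.10. Both Cox6b2 and Cox7b2 are known from testis, and the germ cell markers Ddx4, Dazl and Dppa3 were dim on all 3 arrays. The part of other cell types in these differences was not tested.

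Cox7a1, the heart and skeletal muscle isoform, read 137, 182 and 313 units on the empty-vector, Dnmt1 shRNA and ATM vector arrays. It was 1.48-fold higher on the shRNA array, just inside 1.5-fold, and 2.51-fold higher on the ATM vector array, while Cox7a2 was at -0.07 and 0.13. The muscle markers were also highest in sum on the ATM vector array through Tnnt2, with levels of -0.07, 0.47 and 1.64, and Tnni2, with -4.59, -3.99 and -1.60. Myh6, Myh7, Myh3 and Actc1 were highest on the shRNA array, and Ckm, Actn2 and Mb were not above background on any array. Their part in the Cox7a1 difference was not tested. Cox4i2, an isoform known from lung, read 214, 227 and 259 units, 1.19-fold and 1.33-fold higher. Cox8b and Cox8c were not well above background on any of the 3 arrays. Each isoform has 1 probe, so no second probe stands behind these values.

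**Figure D2:**
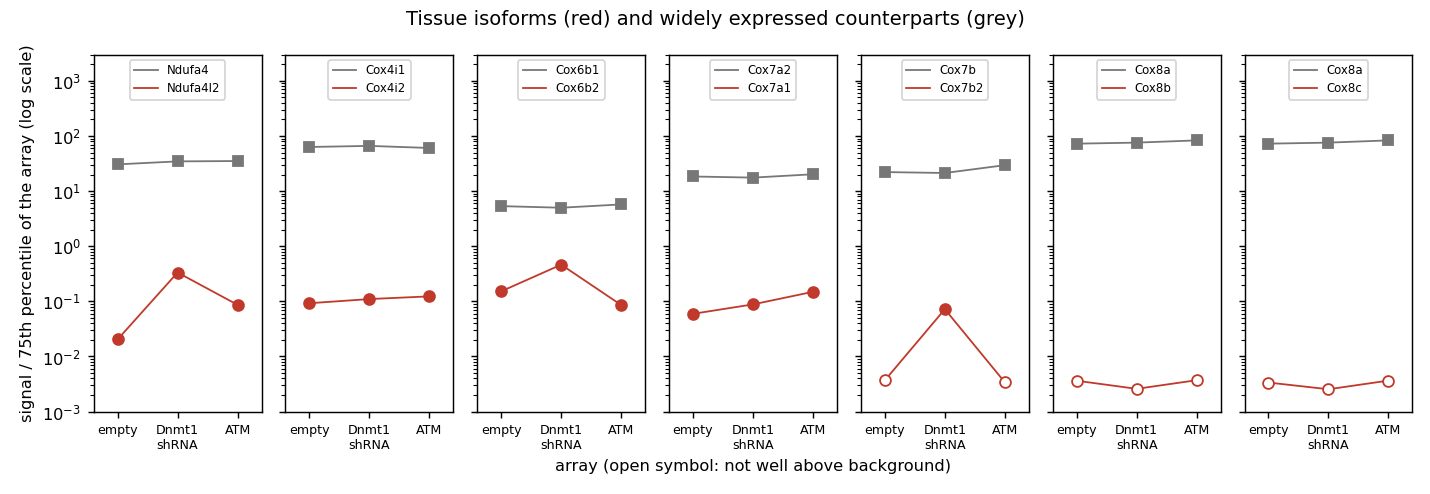
Signal relative to the array's 75th percentile (y axis, log scale) on the 3 arrays (x axis) for each tissue isoform (red circles, open where not well above background) and its widely expressed counterpart (grey squares); levels of different probes are not comparable. Ndufa4l2 (47.2, 688 and 182 units before scaling), Cox6b2 (352, 955 and 180) and Cox7b2 (8.55, 149 and 7.16) are highest on the shRNA array, whereas the grey lines are nearly flat.

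On the ATM vector array the subunits spread further, in both directions. The median log2 ratio of the 82 subunits measured on both arrays was 0.11, with 53 above 0 and 29 (35.4%) below 0, and the median of all 12163 genes was 0.03 with 47.7% below 0. Without scaling the subunit median was -0.02 and that of all genes -0.11. At least 1.5-fold higher were 9 subunits, where 14.3% of all genes were, and 3 were at least that much lower, where 11.6% of all genes were. Bright genes, above the 75th percentile on both arrays, passed 1.5-fold less often, with 548 of 5541 higher and 385 lower. Of the 78 widely expressed subunits 7 were higher and 2 lower. At least 2-fold higher were 2 of the 82 subunits, Cox7a1 and Ndufa4l2, where 6.30% of all genes were. The widely expressed subunits had an SD of 0.327. The pooled SD between probes of a subunit was 0.124 on this comparison, and between probes of a gene over all genes it was 0.337. The comparison shares the empty-vector array with that of the Dnmt1 shRNA, so the values of the 2 comparisons are not independent.

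Medians by complex on the ATM vector array were 0.20 for complex I, 0.17 for complex IV, 0.03 for complex V, -0.03 for complex III and -0.12 for complex II, with complex IV at -0.02 and complex V at -0.13 under quantile normalisation. Complex II had the lowest median in 16 of 16 ways of processing and complex I the highest in 13 of 16. Here too the ways that only rescale an array could not change the order. The widely expressed subunits past 1.5-fold came from every complex but II. Cox7a2l was at 0.78, Uqcr11 at 0.72, Atp5d of the central stalk of the ATP synthase at 0.67, Ndufs7 at 0.65, Cox5a at 0.64, Ndufv2 at 0.60 and Uqcrq at 0.59. Below 0 were Ndufa9, an accessory subunit near the ubiquinone site, at -0.77, and Atp5j, of the peripheral stalk, at -0.60, beside the isoform Cox6b2. Just short of 1.5-fold lay Ndufa5 at 0.55 and Ndufb8 at 0.51 on the higher side, and Ndufa2 at -0.54, Sdha at -0.52 and Uqcrfs1 at -0.50 on the lower. Complex I core subunits had a median of 0.18, with Ndufs7 the highest, and the accessory ones had a median of 0.20. Cycs was at 0.37, with its 3 probes between 0.35 and 0.41. The 3 Cox7c probes ran from -0.25 to 0.26, the widest gap of any subunit at 0.51.

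Signals before scaling are given for some of these values. Ndufa9 read 21371 units on the empty-vector array, 17241 on the shRNA array and 11352 on the ATM vector array. Uqcr11 read 72537, 58222 and 108678. Atp5d read 38492, 31195 and 55512. In each the ATM vector array was at the end of the order, and the other arrays lay closer together. Ndufa9, Uqcr11 and Atp5d were named as the lowest or highest of their complex on this comparison. The place of the ATM vector array thus follows largely from that choice and does not describe the arrays as a whole.

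The place of a subunit on its chromosome went with its log2 ratio on the ATM vector array. Medians of the other genes of a chromosome ran from -0.38 on chromosome 18 to 0.45 on chromosome 10 over 20 chromosomes, whereas on the shRNA array they ran from -0.11 to -0.01. All 5 widely expressed subunits of chromosome 10 were higher: Uqcr11, Atp5d and Ndufs7 with the values already given, Atp5b at 0.41 and Ndufa12 at 0.39. Both subunits of chromosome 18 were lower, Ndufa2 at -0.54 and Atp5a1 at -0.27. Also above 0 were 6 of 6 subunits on chromosome 17 (chromosome median 0.20), 5 of 5 on chromosome 19 (0.17) and 3 of 3 on the X chromosome (0.29). Below 0 were 4 of 5 on chromosome 2 (-0.28) and 5 of 6 on chromosome 13 (-0.21), where Sdha and Uqcrfs1 lie. On chromosome 16 (-0.21) 2 of 3 were below 0, with Ndufb4 against them at 0.29. Where chromosomes were less shifted, subunits could go the other way. On chromosome 1 (0.01) 5 of 6 were below 0, and on chromosome 8 (-0.12) 2 of 3 were above 0. On the chromosomes shifted by at least 0.2 there were 30 widely expressed subunits, and 27 had the sign of their chromosome. Over all 78 it was 53, and 58 on the shRNA array, where every chromosome median was below 0.

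**Figure D3:**
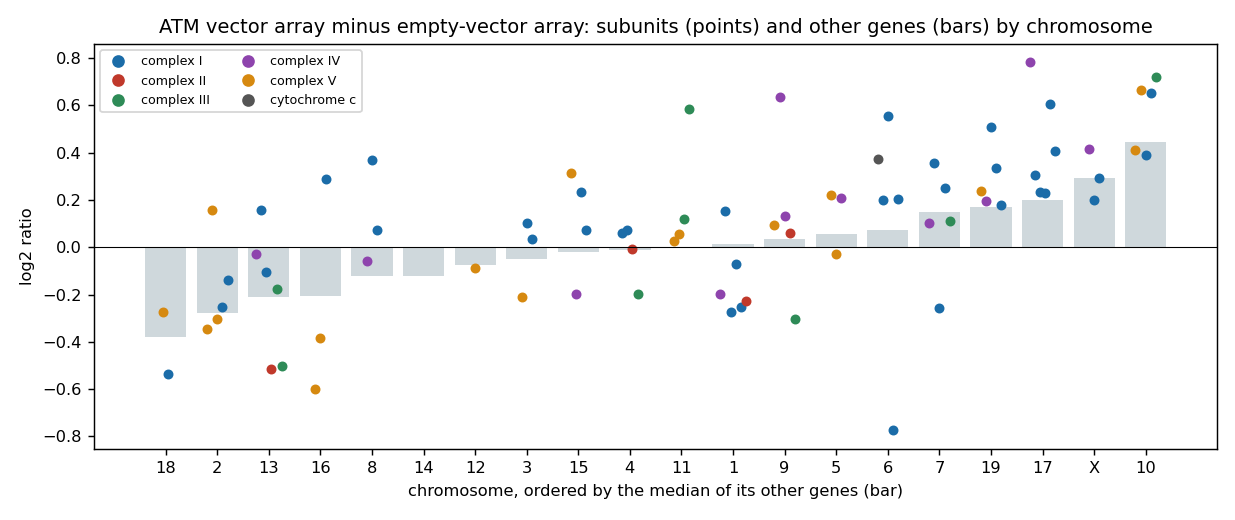
Log2 ratio of the ATM vector array to the empty-vector array (y axis) for each widely expressed subunit (point, coloured by complex) and the median of the other genes of its chromosome (bar), with chromosomes ordered by that median (x axis). Points on chromosome 10 all lie above 0 and those on chromosome 18 below, and chromosome 14 holds no widely expressed subunit.

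Closer neighbours went further with the subunits than whole chromosomes did. Each subunit was set beside the median log2 ratio of up to 50 measured genes around it, 25 on each side. Over the 78 widely expressed subunits the Pearson correlation was 0.655 with the chromosome median and 0.800 with the neighbours on the ATM vector array, against 0.427 and 0.455 on the shRNA array. These correlations describe genes of the same arrays, which share the scaling and, for nearby genes, some of the neighbours. Subtracting the neighbours' median narrowed the SD of the subunits from 0.327 to 0.196 on the ATM vector array, and from 0.14 to 0.125 on the shRNA array. The correlations and subtractions were computed for the subunits alone, so how far other genes follow their neighbours is not known here. The number of widely expressed subunits past 1.5-fold went from 9 to 3 after subtracting the chromosome median and to 0 after subtracting the neighbours' median. Ndufa9 is an example: the median of its chromosome, 6, was 0.07, but its own neighbours were at -0.56 beside its -0.77. Neighbours of Atp5j were at -0.53 beside its -0.60. After subtraction the highest widely expressed subunits were Cox7a2l at 0.57, Uqcrq at 0.48, Cox5a at 0.47 and Ndufa13 at 0.47, and the lowest was Ndufb3 at -0.34.

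The differences between complexes on the ATM vector array narrowed with the same step. Medians of the widely expressed subunits minus their neighbours were 0.03 in complex I, -0.09 in complex II, 0.08 in complex III, 0.04 in complex IV and 0.05 in complex V. Minus neighbours, complex II stayed lowest and complex III, not complex I, was highest. On the shRNA array the same medians were -0.01, -0.16, -0.05, -0.05 and -0.08, with complex II again lowest. Among the isoforms on the ATM vector array, subtraction left Ndufa4l2 at 1.51, Cox6b2 at -1.12 and Cox7a1 at 0.96, the last no longer 2-fold. Cox4i2 went from 0.41 to 0.82 and so past 1.5-fold, since its neighbours stood at -0.41. The cause of the regional shifts was not tested.

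**Figure D4:**
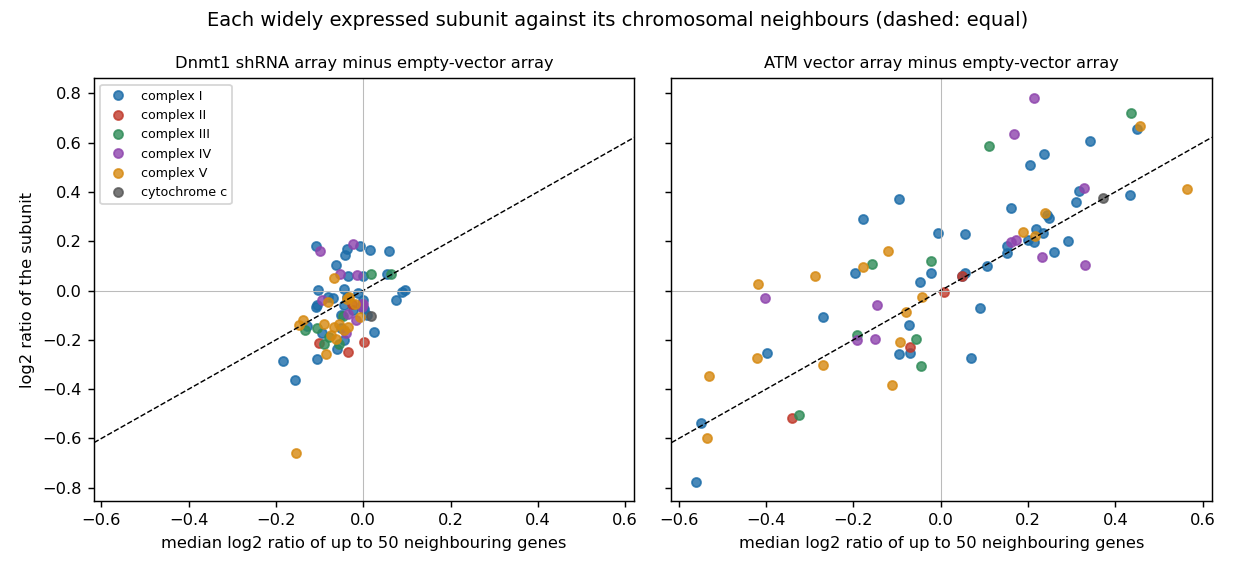
Each point is 1 widely expressed subunit, with the median log2 ratio of up to 50 neighbouring genes on the x axis and its own log2 ratio on the y axis, for the shRNA array (left) and the ATM vector array (right) against the empty-vector array; the dashed line marks equality. The right panel stretches along the line with a correlation of 0.800, and in the left panel neighbours hardly vary.

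The ATM vector array was also set against the shRNA array, a comparison that shares an array with each of the others. The median of the 82 subunits was 0.14, with all genes at 0.06, and it turned to -0.03 under quantile normalisation and -0.07 under cyclic loess. At least 1.5-fold higher were 10 subunits, where 16.6% of all genes were, and 3 were at least that much lower, where 14.3% of all genes were. Among genes above the 75th percentile on both arrays, 795 of 5506 were higher and 422 lower. Of the 78 widely expressed subunits 9 were higher and 1 lower. Of the 82 subunits Ndufs7 was the highest at 0.93, followed by Uqcr11 at 0.87, and the lowest was Cox6b2 at -2.44. Both Ndufs7 and Uqcr11 lie on chromosome 10, whose other genes had a median of 0.54 here. Widely expressed subunits past 1.5-fold in either direction went from 10 to 1 after subtracting the neighbours' median. The complex I core, low on the shRNA array, had a median of 0.35 here, against 0.13 for the accessory subunits. This ratio holds the shRNA values with reversed sign, so it is no separate result on the core. Against the empty vector the medians on the ATM vector array were 0.18 and 0.20.

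Binding motifs of factors known to act on respiratory genes were searched in the 300-base windows of the 66 widely expressed subunits, on both strands. The motif of NRF1, a nuclear respiratory factor, matched in 17 (25.8%), against 7.78% of all 15888 windows. The motif of GABPA, also called NRF2, CCGGAAG, matched in 17 (25.8%), against 13.7%, and that of YY1, AAGATGG, in 11 (16.7%), against 7.40%. No matches of different motifs overlapped, and 4 subunits held both an NRF1 and a GABPA match. Ndufb4 and Sdha each hold 3 NRF1 matches in the window and were at 0.29 and -0.52 on the ATM vector array. Their neighbours were at -0.18 and -0.34. The promoter of Sdha, the complex II subunit that was lowest on the ATM vector array, holds 3 NRF1 matches before the start, shown in capitals.
Sdha (chr13:74350241-74350490, minus strand): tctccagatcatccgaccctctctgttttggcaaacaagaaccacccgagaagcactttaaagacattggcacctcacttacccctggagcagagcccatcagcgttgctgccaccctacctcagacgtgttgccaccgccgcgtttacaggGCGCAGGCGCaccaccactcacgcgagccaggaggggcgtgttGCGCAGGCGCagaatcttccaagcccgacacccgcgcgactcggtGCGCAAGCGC
Subunits with an NRF1 match had a median log2 ratio of -0.08 on the shRNA array and 0.06 on the ATM vector array, and those without one had -0.07 and 0.20. With and without a GABPA match the medians were -0.14 and -0.07 on the shRNA array, and 0.07 and 0.20 on the ATM vector array. For YY1 they were -0.06 and -0.07, then 0.04 and 0.18. On the ATM vector array the medians with a match were lower for each motif. The subtraction of neighbours was not applied to this split, so the regional shifts remain in these medians.

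Genes that build or feed the respiratory chain gave a background for these shifts. On the shRNA array the mitochondrial ribosomal proteins, which translate the subunits encoded in mitochondrial DNA, had a median of -0.20 over 77 genes. That median was further below 0 than the median of the subunits. Of the 77 genes 65 (84.4%) were below 0, where 54.5% of all genes and 63.9% of bright genes were. The ribosomal proteins ran from -0.50 in Mrpl12 to 0.25 in Mrpl35, and none passed 1.5-fold. The enzymes of the citrate cycle and pyruvate dehydrogenase had a median of -0.17 with 15 of 17 below 0, from Dlat at -0.36 to Pdha1 at 0.07. Assembly factors of the complexes had a median of -0.11 over 45 genes, from Cox10, which makes heme for complex IV, at -0.58 to the copper chaperone Sco2 at 0.31. Regulators of mitochondrial biogenesis had a median of -0.07 over 17 genes, from the mitochondrial RNA polymerase Polrmt at -0.45 to Ppargc1a, a coactivator of mitochondrial gene expression, at 0.68. Glycolytic genes had a median of -0.22 over 21 genes, of which 2 were at least 1.5-fold higher and 0 lower. Among all genes 8.45% were that much higher and 3.03% lower, so the glycolytic count higher was near the share over all genes. The lactate exporter Slc16a3 was at 1.27 and hexokinase Hk2 at -0.44.

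On the ATM vector array the same lists had medians of 0.06 for the ribosomal proteins, 0.13 for the citrate cycle, -0.01 for assembly factors, 0.15 for the regulators and 0.22 for glycolysis. Past 1.5-fold, where 14.3% of all genes were higher and 11.6% lower, were 4 of 77 ribosomal proteins in each direction, from Mrps2 at -0.69 to Mrps6 at 0.88. Of 45 assembly factors 4 were higher and 3 lower, from Cox18 at -0.74 to Uqcc2 at 0.88. For the ribosomal proteins both counts are a smaller share than among all genes. Citrate synthase, Cs, which lies on chromosome 10 as Atp5b does, was at 0.64 and Idh3b at -0.32. Among regulators Lrpprc was highest at 0.75 and Gabpa lowest at -0.62, and Ppargc1a was not well above background. Pdk1, which restrains pyruvate dehydrogenase, was at 1.24 and Slc16a3 at -1.32.

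**Figure D5:**
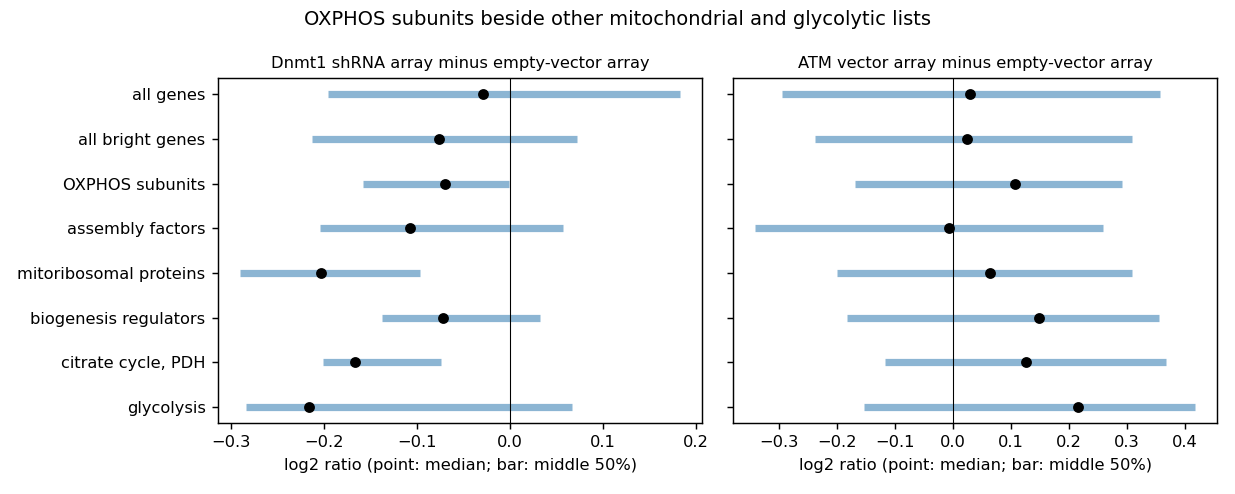
Median log2 ratio (point) and middle 50% (bar) of each gene list (y axis) against the empty-vector array, for the shRNA array (left) and the ATM vector array (right). On the left ribosomal proteins (-0.20) and glycolysis (-0.22) lie further below 0 than the widely expressed subunits (-0.07), and on the right the middle 50% of every list spans 0.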

How the data were processed

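Gene expression was measured on 3 Agilent 1-colour (Cy3) arrays, 1 per group, with groups taken from the transfection label. The submitters' processing notes name Agilent Feature Extraction 10.7.3.1 as the software behind the files that the authors deposited. The processed signal in it is a linear intensity with background subtracted, per the file headers. The flags for signal well above background and for outliers are other marks of 0 or 1 in the deposited scanner files. Values of the deposited series matrix equal this intensity to within 0.495%.

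Control spots and 228, 235 and 167 outlier spots (empty vector, Dnmt1 shRNA, ATM vector) were removed, and none was saturated. The log2 signal was averaged over spots of a probe and the 75th percentile of each array (2312, 2061 and 2101 units) was subtracted. Probes entered a comparison when either of its arrays had them well above background. A gene's ratio is the mean over counted probes, and medians and counts use genes with a probe well above background on both arrays. A gene dim on 1 array is given as at least N-fold different, from the lowest signal well above background there. Repeated spots of a probe had a median SD of 0.046, 0.047 and 0.051 (log2). The number of arrays limits the precision, and no test between groups was possible.

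Probes were named through RefSeq accessions and a RefSeq gene table (GRCm38.p6), which matched 26412 of 39429 probes to 1 symbol. The array design uses another build, so this table gave only names, chromosome and gene order. Chromosome and neighbour medians used genes above -3 on the log2 scale. Probe sequences were not used here, and signals of near-identical genes, such as subunits with processed pseudogenes, may include cross-hybridisation.

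The members and lists were chosen with earlier results of these data known. Named were Dnmt1, Atm and Rb1, the highest and lowest member of each complex, members at least 1.5-fold different or dim on any array, the succinate dehydrogenase subunits, Cycs, members whose probes differed in sign by over 0.3, the tissue isoforms, and the highest and lowest member of each other list. Other genes were named after their values were seen, and 1 gene is not reported here. Alternatives covered background correction, scaling and filters. The normexp alternative used the median signal and median background, in place of the mean signal planned. Markers of fat were well above background for 1, 0 and 0 of 5 genes, of endothelium for 2, 2 and 2 of 4, of blood for 2, 1 and 2 of 3 on the array, and of neural cells for 3, 3 and 3 of 4. Python 3.11.15, numpy 2.4.6, pandas 2.3.3, R 4.3.3 and limma 3.58.1 were used, and the scripts were tested on simulated data.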

Additional observations from a re-analysis of the deposited data

How the results depend on the processing

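No paired analysis was possible because each group has 1 array, so leaving out an array or fitting the slide was not possible either. Of 12 alternatives listed at the start and 3 chosen after seeing the data (chromosome median subtracted, neighbours subtracted, tissue isoforms left out), none reversed a called value. The medians and counts that moved are given here. A median moved if it changed sign or shifted by more than the spread between probes of a gene over all genes. That spread was an SD of 0.210, 0.337 and 0.383 for the 3 comparisons. Counts moved if they changed by over 1.5 times. Log2 ratios of single named subunits shifted by more than that spread in 63 cases and stayed within it in 1353, and are not listed one by one. On the ATM vector array against the empty vector, Ndufa9 ran from -0.91 to -0.21 and Atp5d from 0.21 to 0.67. The cause of each move was not tested, except that leaving out isoforms or dim probes removes genes. For the Dnmt1 shRNA against the empty vector, medians of all subunits and of complex I were 0.020 and 0.060 under quantile normalisation and 0.040 and 0.074 under cyclic loess. Median scaling gave -0.30 for all subunits and -0.27, -0.45, -0.39, -0.22 and -0.38 for complexes I to V. Complex I was 0.0087 with the percentile over probes above background on all arrays and 0.0092 minus the chromosome median. Complex IV was -0.15 without scaling, -0.036 without a filter, and -0.056 with probes above the 75th percentile or without isoforms, which both left 1 subunit past 1.5-fold. For the ATM vector against the empty vector, quantile normalisation gave -0.018 for complex IV, -0.13 for complex V and 7 subunits past 1.5-fold. Complex V was -0.12 under cyclic loess, -0.013 under median scaling and -0.11 without scaling, where all subunits were at -0.024. Past 1.5-fold were 7 subunits minus the chromosome median and 4 minus neighbours, with complex III then at 0.078. For the ATM vector against the Dnmt1 shRNA, quantile normalisation gave -0.032 for all subunits and -0.0097, -0.0026, -0.14 and -0.067 for complexes I, II, III and V. Cyclic loess gave -0.068 for all and -0.033, -0.050, -0.19, -0.046 and -0.10 for complexes I to V. The percentile over probes above background on all arrays gave -0.055 for complex III and 8 subunits past 1.5-fold, against 5 minus the chromosome median and 4 minus neighbours. With 10 to 50 neighbours on each side, the correlation on the array labelled ATM vector stayed between 0.775 and 0.800. Dim signals limit Ndufa4l2, Cox7b2, Cox8b and Cox8c, and Ppargc1a among the regulators.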
